A study of Homo sapiens with 12 samples.

Results

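The repeated hnRNP M intron sites are 213 positions in human introns that were listed for hnRNP M in 1 library and had a listed position within 5 nt in another. They were chosen from the intron positions listed for hnRNP M in wild-type (WT) replicate 2. Positions were kept from the highest count downwards and at least 11 nt apart on a strand, which left 29781 windows of 11 nt. Of these, 213 (0.715%) had a listed position within 5 nt on the same strand in at least 1 of the other 3 hnRNP M libraries. The region 25000001 to 26000000 of chromosome 15, the mitochondrial genome and the ribosomal contig GL000220 were left out. Over all 12 libraries the series held 636752 such windows.

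The study used iCLIP, in which proteins are fixed to bound RNA with ultraviolet light and pulled down, and the place where reverse transcription stops shows the contact at nucleotide resolution. The cells were H9, an established human embryonic stem cell line, either WT or P-KO, a line whose source label carries the name SPA; the labels do not say how many clones the P-KO line comprises. Both received 400 mJ/cm2 of light, and the antibodies were directed at RBFOX2 (FOX2), TDP43 or hnRNP M. There were 2 libraries for every protein in each genotype, described in the design as biological replicates.

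The splicing regulator hnRNP M is abundant in the nucleus, prefers GU-rich RNA and takes part in the choice of alternative exons. FOX2 binds GCAUG-like elements beside the exons it regulates, and in nuclear extracts it is found in a large assembly that also holds hnRNP M. TDP43 binds UG repeats, mostly deep in introns. An intron site of hnRNP M can therefore also carry FOX2 or TDP43, and the counts of both at the same nucleotides were read from their own libraries, which had no part in choosing the sites. The sequences of the sites are not printed because no genome of the build of the files (hg19) was used here, and the files do not pair the Ensembl transcripts with gene names.

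Window counts per library, counting each 11 nt window once, ranged from 58191 to 123482 for hnRNP M and from 172613 to 648651 for FOX2 and TDP43. The replicate 2 libraries of FOX2 and TDP43 (282997 to 648651) were all deeper than the replicate 1 libraries (172613 to 232174). The lowest listed count was 2 in every library, so a site that a library does not list is written as listed at 0. Such a 0 sets no upper limit and gives no fold.

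Repetition between hnRNP M libraries was rare and mostly involved a single partner. No site was listed in all 4 hnRNP M libraries, 2 were listed in 3 and 211 in 2. P-KO replicate 2 supplied the match at 113 sites, P-KO replicate 1 at 61 and WT replicate 1 at 41, so that 173 sites were found in at least 1 P-KO library. Without P-KO replicate 2 the number of sites was 101. The lists of these libraries also differed in length, and the part of length in these numbers was not tested. Of the intron windows of each partner library, 1.09% of 10752 in P-KO replicate 2, 0.829% of 7482 in P-KO replicate 1 and 0.607% of 6759 in WT replicate 1 lay within 5 nt of a position of WT replicate 2. As a share of the 29781 windows of WT replicate 2, the same overlaps were 0.379%, 0.205% and 0.138%.

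Between the 2 hnRNP M P-KO libraries, 0.294% of the windows of replicate 1 and 0.205% of those of replicate 2 were shared. The replicate pairs of the other proteins ranged widely, in the same order of lists: 5.31% and 4.26% for FOX2 WT, 22.3% and 12.0% for FOX2 P-KO, 6.43% and 4.65% for TDP43 WT, and 4.44% and 2.42% for TDP43 P-KO. In the FOX2 and TDP43 libraries, positions of hnRNP M WT replicate 2 reached between 0.291% (FOX2 WT replicate 1) and 0.718% (FOX2 P-KO replicate 2) of their intron windows. Read the other way, each of these libraries was listed at 0.742% to 2.87% of the 29781 windows of WT replicate 2. The other hnRNP M libraries were listed at 0.138% to 0.379%. The lists of FOX2 and TDP43 were longer, with 62875 to 319582 listed positions against 7621 to 13492. Of their own intron windows, the other hnRNP M libraries had 0.607% to 1.09% within 5 nt of WT replicate 2. These overlaps are descriptions and were not tested.

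The distance between libraries fell off sharply within the matching range. Of the 213 sites, 37 had the partner's position at the same nucleotide and 52 at a distance of 1 nt, falling to 22 at 5 nt. Because each distance above 0 can lie on either side, the numbers were divided by the number of signed offsets, which gave 37.0 windows at offset 0, 17.6 per offset from 1 to 5 nt, 10.2 per offset both from 6 to 10 nt and from 11 to 20 nt, and 9.05 from 21 to 30 nt. The level beyond 5 nt was thus below the mean inside the matching range (19.4 per offset) but not near 0, so a position of another hnRNP M library also lay near many windows without matching them. The rule used these distances, and they are given without a test.

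**Figure D1:**
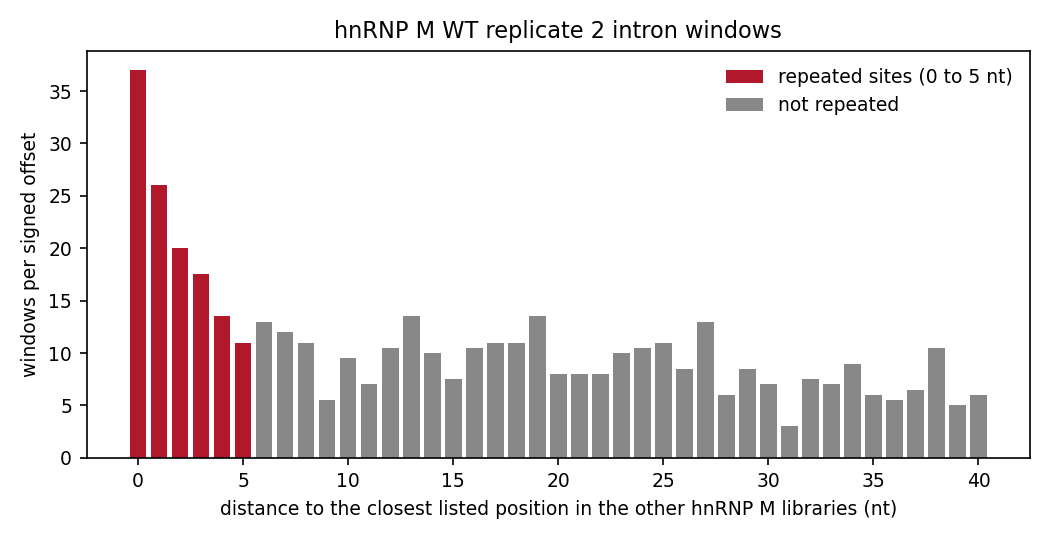
Number of hnRNP M WT replicate 2 intron windows per signed offset (y) against the distance to the closest listed position in the other 3 hnRNP M libraries (x, nt). Red bars are the 213 repeated sites. The bars fall from 37 at 0 nt to 11 at 5 nt and lie between 5.5 and 13.5 from 6 to 30 nt.

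At the edge of the rule, the 2 sites with the highest counts at 5 nt were at 65054313 on the minus strand of chromosome 15, with counts of 11 in WT replicate 2 and 9 in WT replicate 1, and at 99251878 on the plus strand of chromosome 15, with 8 in WT replicate 2 and 2 in P-KO replicate 2. A site at 56637972 on the plus strand of chromosome 18 tied with the latter, with 8 in WT replicate 2 and 5 in P-KO replicate 2. Just outside it, at 6 nt, were 93684773 on the minus strand of chromosome 5, with a count of 16, and 27540728 on the minus strand of chromosome 21, with a count of 6. The window at 93684773 lay next to the repeated site at 93684784. Its FOX2 counts were 8 and 4 in WT replicates 1 and 2, and 18 and 23 in P-KO replicates 1 and 2. Its TDP43 counts were listed at 0, and the window on chromosome 21 was listed at 0 for both proteins.

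The counts of hnRNP M at the sites were low. In WT replicate 2 they ranged from 2 to 29 with a median of 3, the same median as at the 29568 windows that were not repeated. In the partner libraries the median at the sites was 9 for WT replicate 1 and 9 for P-KO replicate 1, beside 9 and 8 for all windows of these libraries, and 5 for P-KO replicate 2, beside 5. The partner's count was higher than that of WT replicate 2 at 158 sites, lower at 33 and equal at 22. High counts were nevertheless more frequent among the repeated sites: 16 of 213 (7.51%) had 8 or more in WT replicate 2, against 309 of 29568 (1.05%) of the windows that were not repeated. All of these values were used by the rule and are a description.

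The highest sites lay close together on the plus strand of chromosome 1, in introns 1 and 2 of ENST00000398958.2. The intron is the label of the deposited list. Whether another RNA is encoded within an intron at these or the other sites was not examined. The site at 28833874 had 29 hnRNP M counts in WT replicate 2 and 5 in P-KO replicate 2. The site at 28835068 had 19 and 4 in the same libraries. The site at 28835149 had 12 and 5. All 3 were listed at 0 in both replicate 1 libraries of hnRNP M. The other sites among the 5 highest were at 130210916 on the minus strand of chromosome 9 (14 in WT replicate 2 and 4 in P-KO replicate 2) and the site at 65054313 on chromosome 15 named above. The 2 sites found in 3 hnRNP M libraries had low counts in WT replicate 2. The site at 54970440 on the plus strand of chromosome 19 had 4 there, 8 in P-KO replicate 1 and 5 in P-KO replicate 2. The site at 128931748 on the plus strand of chromosome 8 had 2 there, 11 in WT replicate 1 and 9 in P-KO replicate 1.

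The sites were spread over 160 transcripts on 24 chromosomes and contigs, with 123 on the plus strand and 90 on the minus strand. Of these transcripts 136 held 1 site, 14 held 2 and 10 held 3 or more. Another repeated site lay within 1000 nt of 16 sites (7.51%) and within 10 kb of 43 (20.2%). Transcripts that held a repeated site had a median of 10 intron windows in hnRNP M WT replicate 2, against 2 for all 8272 transcripts with a window. The sites were drawn from these windows, so a transcript with more windows was more likely to hold a site. First introns held 65 of the 213 sites (30.5%), against 23.2% of the windows that were not repeated, and second introns 38 (17.8%), against 14.2%.

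The most sites, 13, lay in 5 introns of ENST00000341776.2 (chromosome 6, plus strand, from 15262771 to 15491763); its introns held 306 windows of WT replicate 2, of which 4.25% were repeated. ENST00000513200.3 on the minus strand of chromosome 5 held 9 sites, all in intron 1 and within 8076 nt, out of 104 windows (8.65%). ENST00000337195.5 on chromosome 10, ENST00000378330.2 on chromosome 16 and ENST00000495879.1 on chromosome 3 held 4 each.

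FOX2 and TDP43 were listed at the repeated sites several times as often as at the other hnRNP M windows. At least 1 of the 4 FOX2 libraries had a listed position within 5 nt of 44 sites (20.7%, 95% Clopper-Pearson interval 15.4 to 26.7), against 1277 of 29568 windows that were not repeated (4.32%, 4.09 to 4.56). For TDP43 it was 36 sites (16.9%, 12.1 to 22.6), against 1121 windows (3.79%, 3.58 to 4.02). Both proteins were listed at 19 sites, FOX2 without TDP43 at 25, TDP43 without FOX2 at 17, and neither at 152 (71.4%). Most hnRNP M sites found again in a second library thus had no listed FOX2 or TDP43 count. The intervals cover counting error only and treat neighbouring sites as independent. Since sites of 1 transcript are not independent, the shares were also taken without the 10 transcripts that held 3 or more sites, an alternative chosen after seeing the data. FOX2 was then listed at 14.6% of the remaining 164 sites and TDP43 at 14.6%.

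The same order held in each of the 8 libraries, with a larger share of repeated sites than of other windows. FOX2 was listed at 9 sites (4.23%) in WT replicate 1, 27 (12.7%) in WT replicate 2, 9 (4.23%) in P-KO replicate 1 and 36 (16.9%) in P-KO replicate 2. At windows that were not repeated the shares were 0.734%, 1.59%, 0.734% and 2.77%. TDP43 was listed at 8 sites (3.76%) in WT replicate 1, 25 (11.7%) in WT replicate 2, 6 (2.82%) in P-KO replicate 1 and 24 (11.3%) in P-KO replicate 2, against 0.960%, 1.63%, 0.727% and 1.53%. The ratio of the shares was 5.76 to 7.99 in FOX2 and 3.87 to 7.36 in TDP43. For both proteins the replicate libraries of a genotype differed more than the genotypes did within a replicate number. FOX2 was equal in both genotypes in replicate 1 and higher in P-KO in replicate 2. FOX2 P-KO replicate 2 was the deepest library, with 648651 window counts against 288698 in FOX2 WT replicate 2. Its ratio to the windows that were not repeated was lower (6.10 against 7.99). TDP43 was higher in WT by 2 sites in replicate 1 and by 1 in replicate 2. These differences were not tested.

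**Figure D2:**
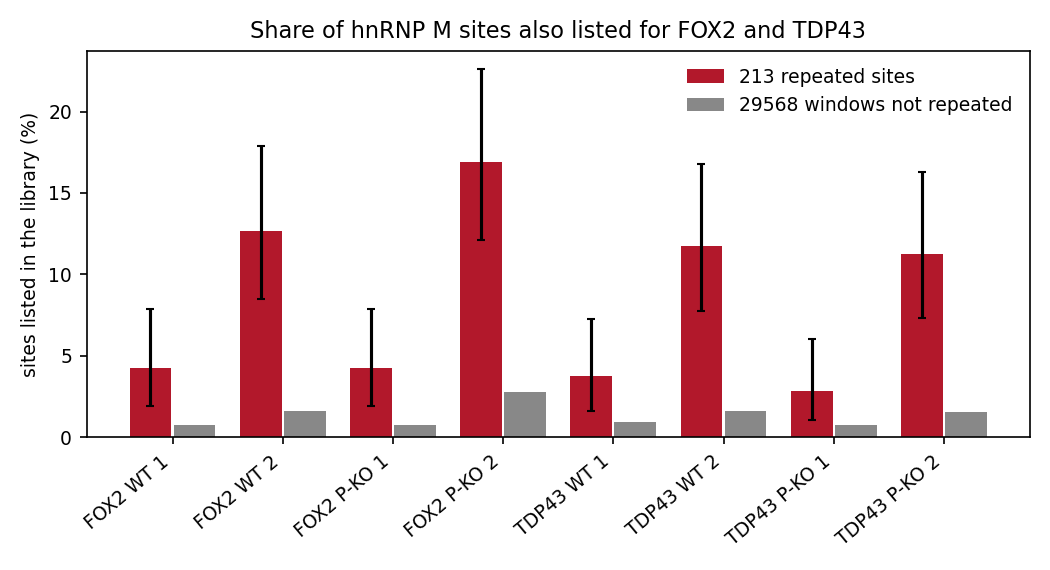
Share of the 213 repeated hnRNP M sites (red, with exact 95% intervals) and of the 29568 hnRNP M windows that were not repeated (grey) with a listed position within 5 nt in each FOX2 and TDP43 library (y, percent). Red bars run from 2.82% to 16.9% and grey bars from 0.727% to 2.77%; replicate 2 is higher than replicate 1 in every group.

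In proportion, the excess of FOX2 and TDP43 at the repeated sites was largest at the same nucleotide, but it extended to 500 nt. The same nucleotide was listed for FOX2 at 25 sites (11.7%) and for TDP43 at 18 (8.45%), against 1.68% and 1.35% of the windows that were not repeated. Widening the distance from 5 to 10 nt added 4 sites for FOX2 (48 in all) and 7 for TDP43 (43 in all). Within 500 nt, FOX2 was listed near 73.2% of the sites and TDP43 near 70.9%, against 44.6% and 44.9%. The median distance to the nearest FOX2 position was 140 nt at the repeated sites and 641 nt at the others, and for TDP43 206 and 619 nt.

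A pair of properties of the sites moved with these shares. The first was the hnRNP M count itself. FOX2 was listed at 12.5% of the 40 repeated sites with 2 counts in WT replicate 2, and at 14.9%, 13.0%, 20.8% and 30% of those with 3, 4, 5 and 6 to 7. Among the 16 sites with 8 or more it was listed at 12 (75.0%). The corresponding shares of windows that were not repeated were 3.71%, 4.15%, 4.23%, 4.48%, 5.13% and 16.8%. The FOX2 share thus fell from 3 to 4 counts. The TDP43 share fell there too. For TDP43 the shares were 5.0%, 17.9%, 8.70%, 16.7%, 20% and, for 10 of the 16 sites with 8 or more, 62.5%, beside 3.98%, 3.49%, 3.42%, 3.83%, 4.17% and 14.2% of the other windows.

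**Figure D3:**
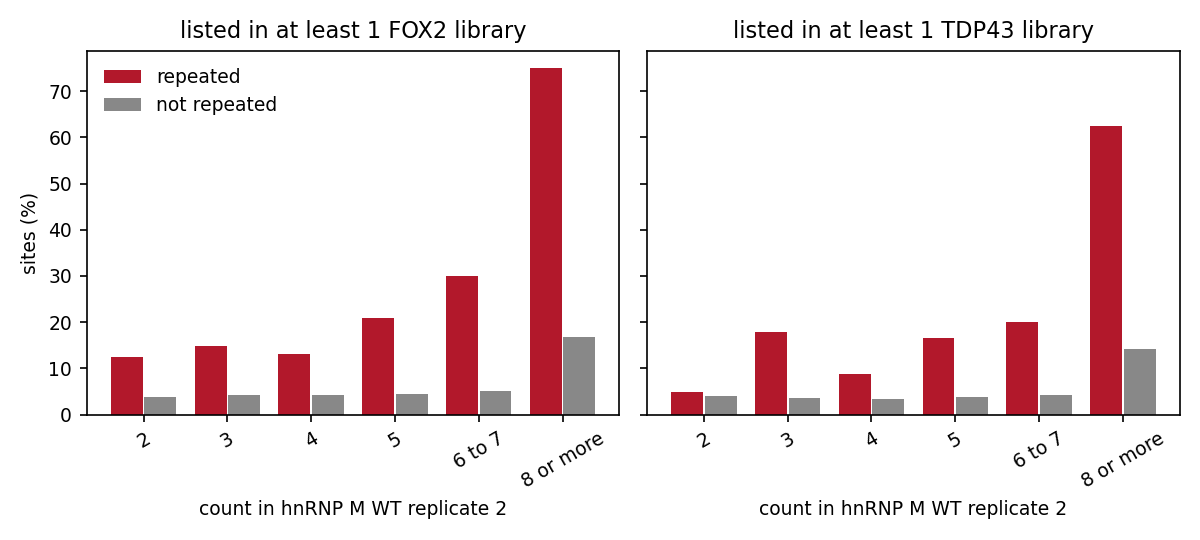
Share of sites listed in at least 1 FOX2 (left) or TDP43 (right) library (y, percent) by the count of the site in hnRNP M WT replicate 2 (x). Red bars are repeated sites (40, 67, 46, 24, 20 and 16 from left to right) and grey bars windows that were not repeated; the bars for 8 or more counts reach 75.0% and 62.5%.

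The second was the signal around the site. The 193 strand-specific bins of 10 kb that held a repeated site had a median of 40 FOX2 and 26 TDP43 window counts summed over the 4 libraries of the protein, against 9 and 9 for the 19483 bins of the other hnRNP M windows. Where the bin held 200 or more FOX2 counts outside the site, FOX2 was listed at 54.3% of 46 repeated sites and 26.8% of 1405 other windows. With at least 50 and under 200 counts it was listed at 20% of 55 and 9.89% of 3760, and with 10 to 49 counts at 9.88% of 81 and 3.29% of 11992. Among the sites with fewer FOX2 counts around them, 0 of 25 (1 to 9 counts) and 0 of 6 (0 counts) were listed, beside 1.20% of 9871 and 0.669% of 2540 other windows. For TDP43 the shares were 43.5% of 23 against 22.4%, 23.0% of 61 against 9.28%, and 10.8% of 93 against 3.66%. With fewer TDP43 counts around them, 1 of 34 (1 to 9 counts) and 1 of 2 (0 counts) were listed, beside 1.54% of 10049 and 1.05% of 2468 other windows. Within the 3 upper levels the repeated sites were listed 1.94 to 3.01 times as often as the others; the lower levels held too few listed repeated sites to compare.

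The replicate number also moved with the listing. Of the 61 sites with FOX2 or TDP43, 39 were listed in replicate 2 libraries of these proteins and not in replicate 1, 4 in replicate 1 and not in replicate 2, and 18 in both. Among the windows that were not repeated, these numbers were 1347, 462 and 329. The 112 sites matched through hnRNP M P-KO replicate 2 alone were listed in 16.1% to 20.5% of cases in each replicate 2 library of FOX2 and TDP43 and in 3.57% to 6.25% in each replicate 1 library. The 59 sites matched through P-KO replicate 1 alone were listed in 8.47% and 10.2% of cases in FOX2 WT replicates 1 and 2, and in 6.78% and 16.9% in FOX2 P-KO. The TDP43 libraries listed 1.69% (WT replicate 1), 10.2% (WT replicate 2), 1.69% (P-KO replicate 1) and 6.78% (P-KO replicate 2) of them. The 40 sites matched through WT replicate 1 alone were listed at 0 in all 4 replicate 1 libraries of FOX2 and TDP43, and in 1 to 3 cases in each replicate 2 library. Whether depth, a shared preparation or the sites themselves set this pattern was not tested. Per the labels, some libraries shared an inline barcode apart from its random bases. hnRNP M WT replicate 2 shared it with TDP43 P-KO replicate 1, which had the lowest share of listed sites (2.82%). hnRNP M P-KO replicate 2, the match at 113 sites, shared it with FOX2 P-KO replicate 2, which had the highest share (16.9%), and TDP43 P-KO replicate 2 (11.3%). hnRNP M P-KO replicate 1 shared it with both TDP43 WT libraries (3.76% and 11.7%). The part of the barcodes in the listing was not tested.

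At 5 sites, a set chosen after their values were seen, all 4 replicate 2 libraries of FOX2 and TDP43 had counts and no replicate 1 library did, against 10 of the 29568 windows that were not repeated. They were the 3 sites on chromosome 1 described above and those at 39449922 on the plus strand of chromosome 3 and 62620510 on the minus strand of chromosome 11. The site at 28833874 had 13 FOX2 counts in WT replicate 2 and 21 in P-KO replicate 2, and 17 and 26 TDP43 counts. The site at 28835149 had 16 and 23 FOX2 counts and 26 and 22 TDP43 counts. In hnRNP M, all 5 were listed in both replicate 2 libraries and in neither replicate 1 library. The rule fixed the listing in hnRNP M WT replicate 2. These 5 are among the 112 sites matched through hnRNP M P-KO replicate 2 alone, which by definition lack both replicate 1 libraries. Nothing is therefore read from the hnRNP M listing about the replicate 2 pattern.

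**Figure D4:**
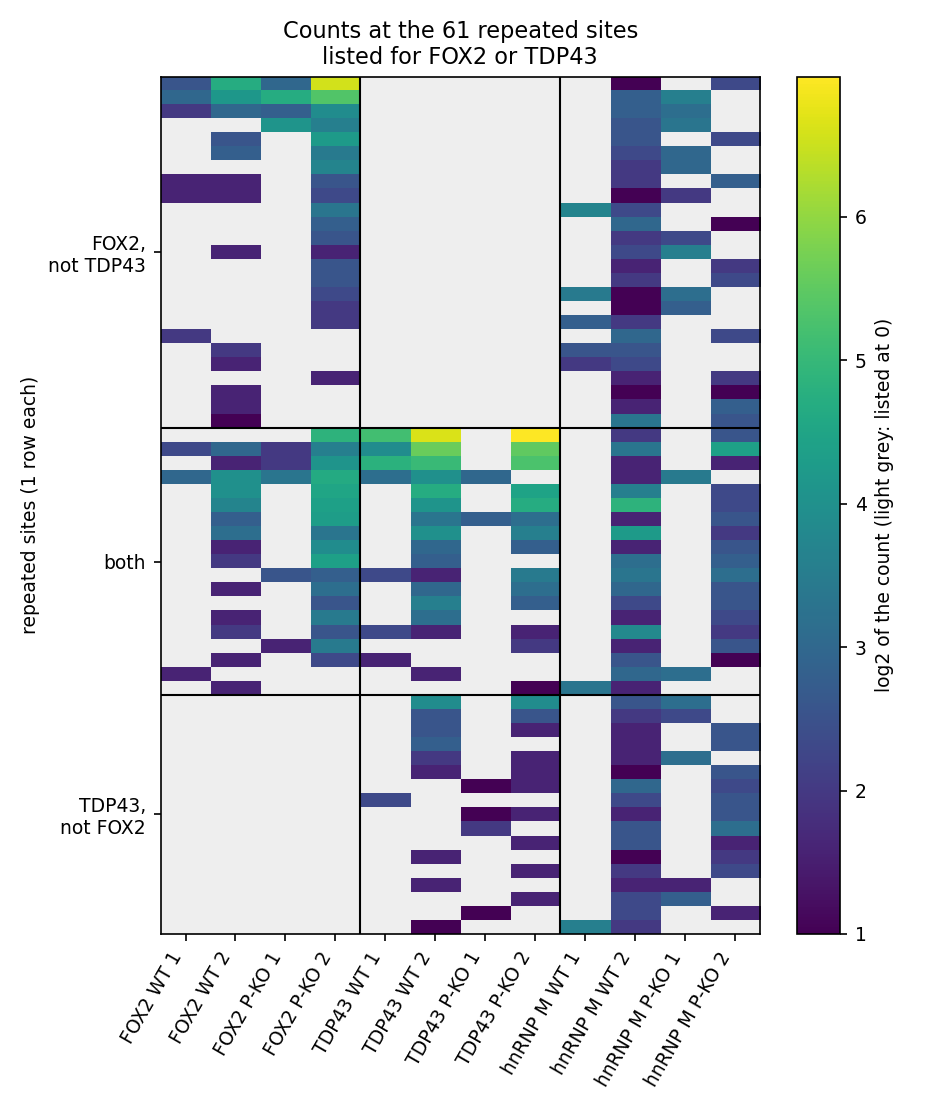
Counts (colour, log2 scale; light grey: listed at 0) at the 61 repeated sites with FOX2 or TDP43 (rows, grouped by the proteins listed) in the 12 libraries (columns). FOX2 without TDP43 fills 25 rows, both proteins 19 and TDP43 without FOX2 17, and the replicate 2 columns of FOX2 and TDP43 are filled more often than the replicate 1 columns.

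The highest FOX2 counts lay in the intron of ENST00000513200.3. By mean counts per 1000000 window counts over the 4 libraries, the first site was at 93679405. FOX2 had 6 counts there in WT replicate 1, 26 in WT replicate 2, 8 in P-KO replicate 1 and 95 in P-KO replicate 2, and the site was listed at 0 in all 4 TDP43 libraries. Its hnRNP M counts were 2 in WT replicate 2 and 5 in P-KO replicate 2. The second, at 93684784, had 8, 18, 26 and 41 FOX2 counts in the same order of libraries and was also listed at 0 for TDP43. The third lay on chromosome 8 and is described below. The fourth and the fifth were again in this intron and without TDP43: 93683057, with 4, 8, 7 and 15 FOX2 counts, and 93684503, with 0, 0, 17 and 12. In all, 6 of the 9 sites of this intron had FOX2 and 1 had TDP43. That site, at 93683251, had 5, 3, 0 and 11 TDP43 counts and 0, 0, 6 and 7 FOX2 counts, in the same order.

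**Figure D5:**
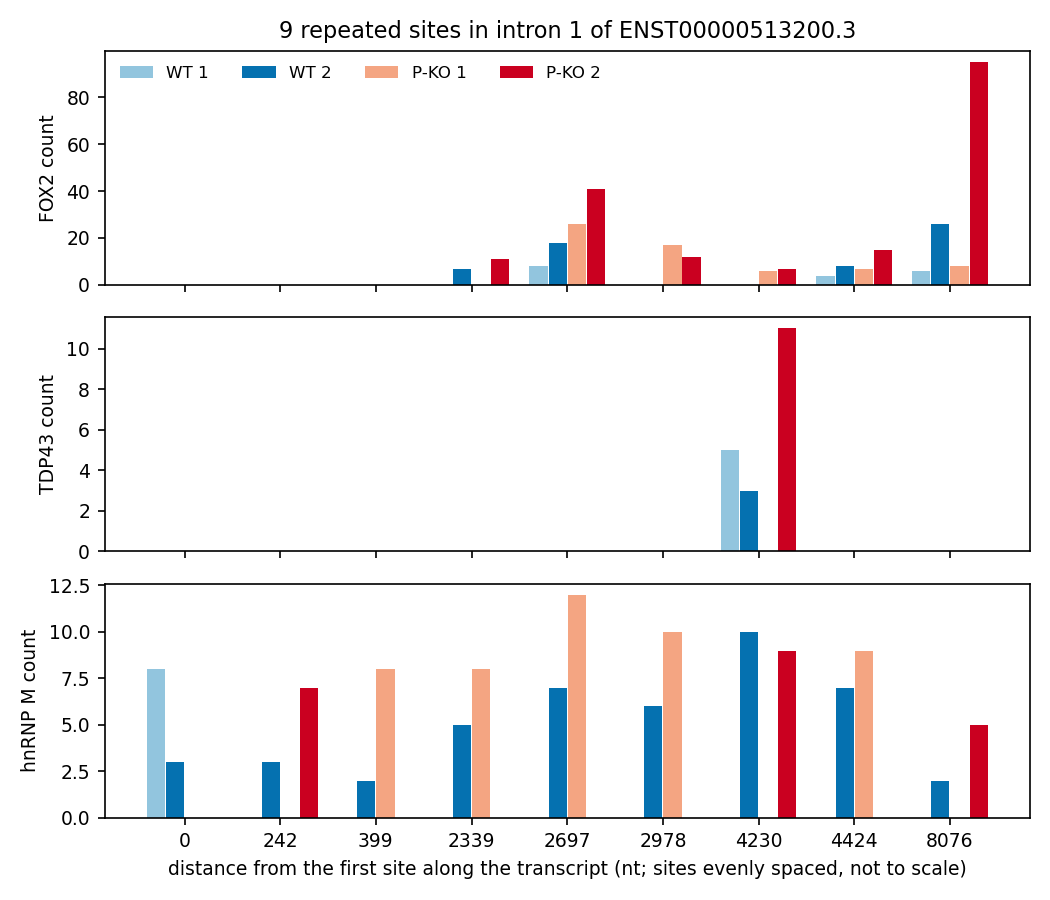
Counts (y) of FOX2, TDP43 and hnRNP M in each library at the 9 repeated sites in intron 1 of ENST00000513200.3, in order along the transcript (x, nt from the first site, evenly spaced and not to scale). FOX2 reaches 95 counts at the last site, where TDP43 is listed at 0; TDP43 appears at 1 site, with at most 11 counts.

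FOX2 was listed in all 4 of its libraries at 5 sites, 3 of them in this intron. The others were at 453472 on the minus strand of chromosome 8, with FOX2 counts of 8, 16, 10 and 25, and at 15262771 on the plus strand of chromosome 6, with 5, 8, 4 and 12. The site on chromosome 8 also carried TDP43, with counts of 9, 16, 8 and 0.

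TDP43 was listed in all 4 of its libraries at none of the 213 sites, and the first 5 sites by mean TDP43 counts per 1000000 window counts were all listed at 0 in P-KO replicate 1. The first, at 160232848 on the minus strand of chromosome 3, had TDP43 counts of 36, 99, 0 and 126; FOX2 was listed there only in P-KO replicate 2, with 29. The site at 15262771 on chromosome 6 followed, with 15, 49, 0 and 46, and also had the highest hnRNP M count of any partner library, 21 in P-KO replicate 2. The site at 2162423 on the plus strand of chromosome 1 had TDP43 counts of 28, 33, 0 and 39 and FOX2 counts of 0, 3, 4 and 17. The sites at 28835149 and 28833874 came next. The sites of highest FOX2 count in the intron on chromosome 5 were listed at 0 for TDP43, whereas these 5 sites carried counts of both proteins.

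The counts of FOX2 and TDP43 at the sites were tested over all windows of the series, with edgeR's quasi-likelihood test on their 8 libraries and Benjamini-Hochberg adjustment. The filter on low counts left 2984 windows, among them 10 of the 213 repeated sites. These 10 passed because FOX2 or TDP43 was high there, so they do not stand for the rest. Between P-KO and WT, 0 windows passed for FOX2 (0% of those tested, 136 at an unadjusted p under 0.05) and 0 for TDP43 (0%, 53 at that p). None of the 10 sites reached an unadjusted p under 0.05 in either comparison. DESeq2 called 3 windows for FOX2, all lower in P-KO, and 0 for TDP43, with none of the sites among them. The smallest p at a site for FOX2 was at 160232848 on chromosome 3 (0.177 before and 1.00 after adjustment by edgeR), followed by 2162423 and 15262771. For TDP43 it was at 2162423 (0.597 before adjustment by edgeR), followed by 15262771 and 453472. The biological coefficient of variation of the fit was 1.20, at which the FOX2 test between genotypes recovered none of the changes planted in simulated data. Only many-fold changes were planted, up and down, at windows of higher FOX2 counts. These 0 calls do not show that the counts were equal in the 2 genotypes.

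Between FOX2 and TDP43, 2 of the 10 sites passed in WT cells, both higher in FOX2, where 33.9% of all tested windows passed and 30.5% passed as higher in FOX2. The same 2 sites passed in P-KO cells, where the percentages were 33.0% and 28.4%. They were the sites at 93684784 (edgeR adjusted p = 0.0345 in WT and 0.0379 in P-KO) and 93679405 (0.0404 and 0.0461 by edgeR) of the intron on chromosome 5. Both were listed at 0 in every TDP43 library, so no fold is given. They passed the filter on low counts through FOX2 alone, so the direction of these calls was fixed by the filter, and nothing is read from it. The fitted difference was lower in FOX2 at 6 of the 10 sites in WT and at 7 in P-KO, none of which passed. Some fitted values had a wide error, such as a log2 value of -0.003 (standard error 2.70) at 28835149 in WT. WT replicate 1 of both proteins was listed at 0 there, so this value gives no fold and does not show that the counts were equal. Over all tested windows the median difference was higher in FOX2 in both genotypes. The 10 sites passed the filter because FOX2 or TDP43 was high there, so nothing is read from this split. These calls were not stable: without any 1 of the 8 libraries no window passed, DESeq2 called neither site (it gave 93684784 no adjusted p), and over the alternatives the adjusted p of the sites ranged from 0.00301 to 0.381. The other 8 sites did not pass, with edgeR adjusted p of 0.128 or more in WT and 0.197 or more in P-KO. The site at 160232848 had an adjusted p of 0.128 in WT by edgeR. It was 0.0461 by edgeR with the replicate number as a block, and 0.0304 in an edgeR fit of the 4 WT libraries. FOX2 was listed at 0 there in both WT libraries, and the site passed the filter through TDP43. In the fit of the 4 WT libraries the filter thus fixed the direction, and nothing is read from either value.

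In bins of 10 kb, 116 of the 193 bins that held a repeated site were tested. Of these, 17 passed between FOX2 and TDP43 in WT cells, 12 higher in FOX2 and 5 in TDP43, beside 8.90% of all 7766 tested bins. In P-KO cells 17 passed, 10 higher in FOX2 and 7 in TDP43, beside 20.3%. Between P-KO and WT none of the 116 passed, beside 0.129% of all bins for FOX2 and 0.0515% for TDP43, with 5 and 4 of them at an unadjusted p under 0.05 by edgeR. The bins were filtered on the counts tested, and nothing is read from these numbers about the sites as a group.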

How the data were processed

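The 12 iCLIP libraries were grouped by the sample titles. The submitters' processing notes name Bowtie and GRCh37 (hg19). Versions, the peak caller and any removal of duplicates: not given in the sources used here. Each library has 1 deposited list; in it the authors deposited a whole-number count per nucleotide and a p-value or q-value (never above 0.05); which of the 2 it is, and whether counts are reads or cDNAs, is not stated. Coordinates are 1-based.

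The count of a library at a site was its highest listed count within 5 nt. The sites were kept first, then all other listed positions from the highest count downwards, at least 11 nt apart. edgeR 4.0.16 in R 4.3.3 was run with filterByExpr, library sizes kept, TMM and the quasi-likelihood test at a threshold of 0.05, with DESeq2 1.42.0 as an alternative. Tested on simulated data for FOX2 between genotypes, the fit recovered most planted changes at a low spread and none at the spread of these data. Shares have exact 95% intervals (Python 3.11.15, scipy 1.17.1). For ranking, counts were divided by the library's window counts and multiplied by 1000000. p-values set the differences against the spread between the 2 libraries of each group, estimated jointly over the 8 libraries (4 residual degrees of freedom).

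The members and lists were chosen with earlier results of these data known. Sites were named by count, by mean CPM, by the test, by number per transcript and by distance to the edge of the rule. The motif search was not run, since it needs a genome.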

Additional observations from a re-analysis of the deposited data

How the results depend on the processing

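The number of repeated sites was 37 when the same nucleotide was required, and 101 to 173 without 1 of the other hnRNP M libraries. It was within 1.5 times of 213 with a distance of 10 nt (315), windows 21 nt apart (208), last-column values of at most 0.01 (176) or a P-KO match (173). The share listed in FOX2 was 11.7% at the same nucleotide, 50% at the 2 sites of 3 hnRNP M libraries, 14.6% without transcripts of 3 or more sites, and 15.0% to 20.7% without 1 library. For TDP43 it was 8.45% at the same nucleotide, 11.4% with values of at most 0.01, 0% at those 2 sites and 13.6% to 16.0% without 1 library.

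Windows called for FOX2 P-KO against WT were 3 with DESeq2, and 10 bins were called at 10 kb; for TDP43 4 bins were called. Leaving out 1 library gave 0 to 0 in both. For FOX2 against TDP43 in WT, 1011 windows were called, against 175 with DESeq2, 0 with no filter beyond 2 libraries, 532 with at least 20 counts in 2 libraries and 428 with the 4 libraries alone. For P-KO, 984 were called, against 180 with DESeq2, 0 with no such filter, 549 with the stricter filter and 1576 bins. Without 1 library 0 were called in each, with more windows tested (5076 to 7530). Of the repeated sites, 2 were called in WT, against 1 without TMM, 0 with DESeq2, 0 with no such filter, 1 with all 12 libraries, 1 with the 4 libraries alone and 17 bins. The site called with the 4 libraries alone was higher in TDP43, through which it passed the filter, so its direction was fixed. In P-KO 2 were called, against 0 with DESeq2, 0 with no such filter, 1 with all 12 libraries, 1 with the 4 alone and 17 bins. Without 1 library 0 were called in both. The cause of these changes was not tested.

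With the replicate block, 1064 and 1043 windows and 3 and 2 repeated sites were called for FOX2 against TDP43 in WT and P-KO, and 0 for the genotype in either protein. Same-numbered libraries deviated together (r of 0.267 to 0.659 between groups, over 2984 windows, which are not independent), but with 2 numbers the pairing is not established by the labels.

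Of the 213 sites, 10 passed the filter on low counts, and a site listed at 0 has no measured value below the lowest listed count of 2.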

Other observations

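Exonic positions of hnRNP M WT replicate 2, which the choice of sites leaves out, were repeated more often. Taken in the same way, 35 of 2174 exonic windows (1.61%) had a listed position within 5 nt in another hnRNP M library, against 0.715% of the intron windows. Their median count in WT replicate 2 was 6, with a maximum of 126. FOX2 was listed at 24 of these 35 windows (68.6%) and TDP43 at 23 (65.7%), against 8.09% and 6.64% of the 2139 exonic windows that were not repeated. These values were not tested.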
